A study of Mus musculus with 8 samples.

Results

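The dystrophin glycoprotein complex is described here through 8 of the 19938 genes measured, namely Dmd, Utrn, Dag1, Sgca, Sgcb, Sgcd, Dtna and Sspn. A gene counted as measured when the annotation of the array gave a row a single gene symbol, and all 8 members were found, each with 1 probe set, so none was lost to a filter. RNA came from primary myoblasts, cultured dividing cells derived from the satellite cells of muscle, and was hybridized to Affymetrix MoGene 1.0 ST arrays, whose probe sets cover whole transcripts. There were 4 arrays of Runx1f/f myoblasts and 4 of WT myoblasts, numbered 1 to 4 within each genotype and called biological replicates in the labels, which do not say whether each number is a separate animal. Both genotypes were of C57bl/6 background, and their satellite cells were taken from gastrocnemius muscle of mice 2 to 3 weeks old and grown on Matrigel in proliferation medium without further treatment. Runx1f/f is a floxed allele of the transcription factor Runx1 that the labels elsewhere call a knockout, and neither the Cre driver nor the deleted part is stated in the sources used here. The series asked which genes depend on Runx1 early in muscle regeneration.

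Dystrophin lies under the muscle membrane and ties the actin cytoskeleton to dystroglycan, which spans the membrane and binds laminin outside the cell. The sarcoglycans and sarcospan form a subcomplex within the membrane that stabilises this link, and dystrobrevin and the syntrophins bind dystrophin on the cytoplasmic side. Loss of dystrophin causes Duchenne muscular dystrophy, and loss of α-, β- or δ-sarcoglycan causes a limb-girdle dystrophy. The complex is assembled as myoblasts differentiate into muscle fibres.

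Promoter sequences of the 3 members with the largest differences in the comparison below and of utrophin, the flattest member, are shown so that their motifs can be compared. They are RefSeq sequences of build GRCm38.p6, from 250 bases before to 50 bases after a transcript start, 5′ to 3′ on the gene's strand, and 7 of the 8 members matched the table with 10 windows, Dtna not being among them. Capitals mark CANNTG, the E-box that MyoD family factors can bind, and TGANTCA, the AP-1 motif.
Sgcd, chr11:47379276-47379575, minus strand: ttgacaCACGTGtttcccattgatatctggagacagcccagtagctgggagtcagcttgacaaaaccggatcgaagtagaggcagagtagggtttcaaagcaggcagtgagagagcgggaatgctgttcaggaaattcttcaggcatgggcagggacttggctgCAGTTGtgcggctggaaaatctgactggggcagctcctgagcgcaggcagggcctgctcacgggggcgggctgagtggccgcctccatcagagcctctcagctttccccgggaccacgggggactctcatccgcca
Dmd, chrX:82948620-82948919, plus strand: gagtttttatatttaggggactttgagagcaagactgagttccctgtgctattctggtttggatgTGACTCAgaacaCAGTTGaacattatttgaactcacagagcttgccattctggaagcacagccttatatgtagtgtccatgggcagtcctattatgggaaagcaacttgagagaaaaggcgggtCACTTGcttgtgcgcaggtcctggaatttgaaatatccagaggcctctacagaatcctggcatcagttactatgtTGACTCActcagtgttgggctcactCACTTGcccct
Sspn, chr6:145933872-145934171, plus strand: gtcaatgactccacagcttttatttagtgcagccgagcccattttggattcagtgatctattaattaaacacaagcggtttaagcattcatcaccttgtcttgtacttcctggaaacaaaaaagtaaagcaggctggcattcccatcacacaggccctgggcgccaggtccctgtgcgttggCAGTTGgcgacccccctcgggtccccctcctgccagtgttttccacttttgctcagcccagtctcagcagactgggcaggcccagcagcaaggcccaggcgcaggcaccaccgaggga
Utrn, chr10:12861686-12861985, minus strand: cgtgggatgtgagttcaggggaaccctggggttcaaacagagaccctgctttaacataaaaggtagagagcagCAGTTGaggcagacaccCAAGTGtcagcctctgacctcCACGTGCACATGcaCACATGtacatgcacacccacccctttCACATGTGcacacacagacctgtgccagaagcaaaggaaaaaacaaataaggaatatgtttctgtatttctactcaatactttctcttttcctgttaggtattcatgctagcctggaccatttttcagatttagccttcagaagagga

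Both strands were searched, and no 2 different motifs overlapped. CANNTG, which reads the same on both strands, was present in 7 of the 10 windows of the members, against 72.3% of the 32851 windows in the table. The Dag1 windows overlap each other, and a single CANNTG site is counted in each of them. The Runx core TGTGGT was found in 0 of the 10 windows, against 16.8% of all windows. TGANTCA was found in 2 of the 10, in the Dmd window printed above and in the other Sspn window, against 7.81% of all windows. The form CAGTTG, singled out after the sequences had been seen, begins 86 bases upstream of the start in Sgcd, 173 in Dmd, 68 in Sspn and 177 in Utrn. It was found in 4 of the 10 windows, against 13.7% of all windows, on either strand. Thus the window of the flat gene Utrn held the same hexamer as the printed windows of Sgcd, Dmd and Sspn. The printed windows of Dmd and Sspn are those that hold CAGTTG, and the other window of each held no CANNTG. The second Dmd window and the Sgcb window held none of these motifs. A match is a description of letters, and its absence covers this window only.

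The deposited values limit what can be compared. In all 35399 rows the average over WT 1 to 4, that over Runx1f/f 1 and 2 and that over Runx1f/f 3 and 4 differed by at most 7.5e-05, so these 3 column sets carry no difference between the labelled genotypes and their arrays are not independent. Within Runx1f/f, array 1 is the mirror image of array 2 about that mean, and array 3 of array 4. The arrays instead differed along a leading pattern that crossed the labels, with numbers 2 and 3 of both labels on one side and numbers 1 and 4 on the other. This split was found in these values by an earlier analysis and is not a group in the labels, so it is given as a description, with no test. What the split stands for is in doubt, because the columns are tied to the samples by their headers alone. Were the columns in rising order of the source numbers in the labels, 4 of the 4 arrays numbered 2 and 3 would be Runx1f/f and 4 of the 4 numbered 1 and 4 would be WT. Whether they are was not tested, and each difference below is open to that doubt. Array names follow the headers throughout. For each gene the difference is the mean of the 4 arrays numbered 2 and 3 minus the mean of the 4 numbered 1 and 4, in log2 intensity.

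The fit across all genes called 0 of the 8 members and 0% of the 19938 genes between Runx1f/f and WT (limma, Benjamini-Hochberg adjusted p under 0.05, 0 genes with an unadjusted p under 0.05). Equal means fix that outcome, and it does not measure an effect of Runx1 on the complex. Dmd averaged 5.68 ± 0.43 in arrays labelled Runx1f/f and 5.68 ± 0.49 in those labelled WT (SD, n = 4 each). Sgcd averaged 5.93 ± 0.79 in Runx1f/f and 5.93 ± 0.72 in WT arrays, and Sspn 8.26 ± 0.35 and 8.26 ± 0.36 in the same order. Runx1, the targeted gene, read 9.98 and 9.89 in Runx1f/f 2 and 3 and 9.99 and 10.27 in WT 2 and 3. In Runx1f/f 1 and 4 it read 9.35 and 9.44, and in WT 1 and 4 it read 9.15 and 9.25, so its levels followed the numbers and not the labels as attached by the headers, under the doubt stated above.

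Myogenic markers were present throughout, as the labelled cell type implies. The 7 myoblast markers were read between 6.83 and 11.94 on all arrays, with Myod1 between 11.12 and 11.57. Most defining markers of other cells lay near the bottom of the scale, where the lower quartile of all genes is 3.61. The 5 endothelial markers stayed at or below 3.76, and the leukocyte genes Ptprc, C1qa, C1qb and Lyz2 at or below 3.68, with Cd68 reaching 4.78. Among fibroblast genes Dcn, Pdgfra and Lum stayed at or below 3.63, whereas the collagens Col1a1 and Col3a1 read up to 4.82 and 9.21. Of the smooth muscle and pericyte markers, Rgs5 reached 8.96 and Tagln 7.10, with Cnn1 and Myh11 at or below 3.64. In bulk RNA, fewer cells of a type and less RNA per cell cannot be told apart.

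Of the 8 members, 5 read higher on every array numbered 2 or 3 than on any array numbered 1 or 4, namely Sgcd, Dmd, Sspn, Dtna and Sgcb, and 0 read lower in this way. Over all genes, 9.87% were above and 10.5% below without overlap. Of the 5, Sgcd and Dmd also differed by more than 1.5-fold, which 2.16% of all genes did upward and 0.727% downward. At 1.2-fold 4 members were above, against 5.05% of genes above and 3.74% below, and at 2-fold Sgcd alone, against 0.802% and 0.176%. The median difference of the 8 members was 0.36, a ratio of 1.28, where the median of all genes was -0.0064. All 8 differences were above 0, as were 47.2% of those of all genes. The members had been chosen with earlier results of these arrays known, so these counts are descriptions.

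**Figure D1:**
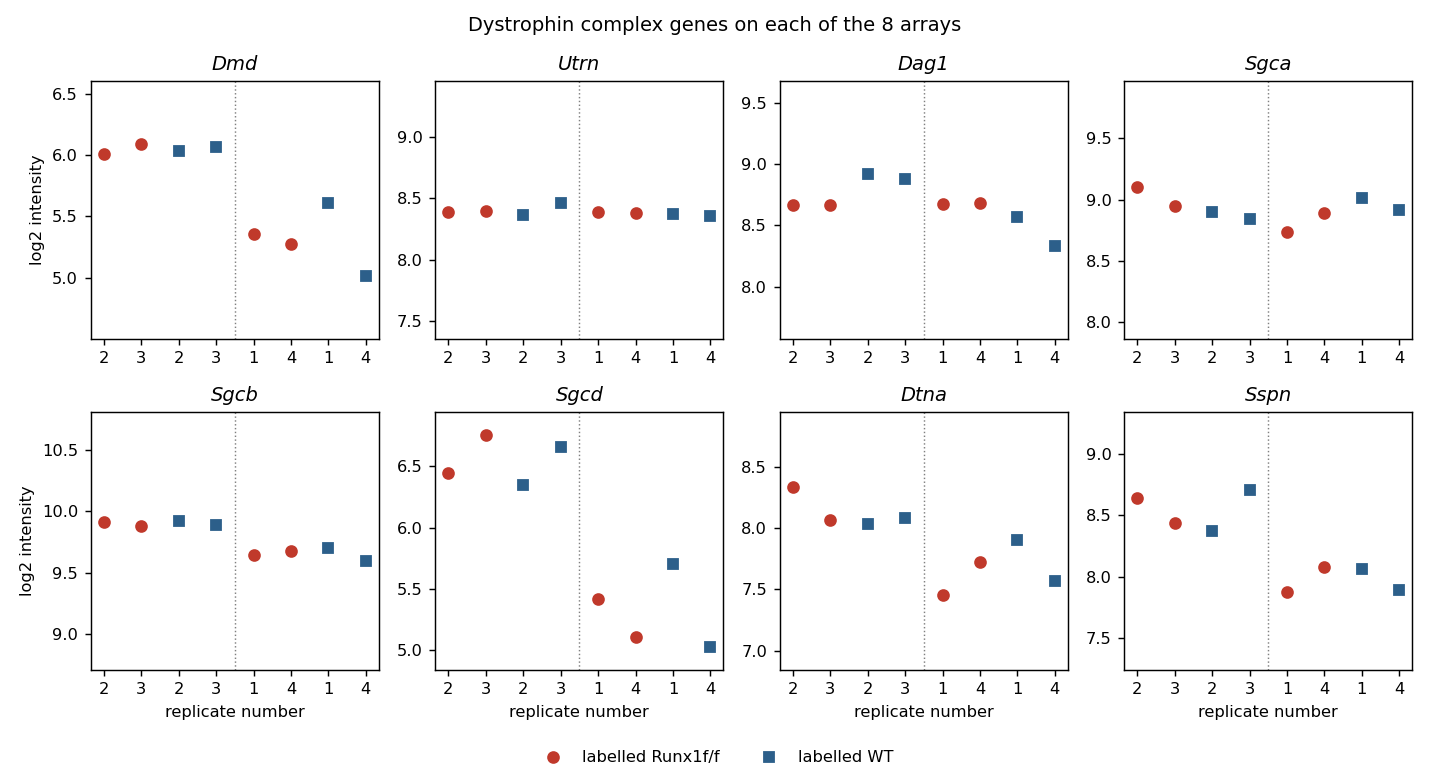
Log2 intensity of each member on the 8 arrays, with replicates 2 and 3 left of the dotted line and replicates 1 and 4 right of it, circles for arrays labelled Runx1f/f and squares for those labelled WT; every panel covers the same height in log2 units. Sgcd, Dmd, Sspn, Dtna and Sgcb separate at the dotted line in both labels, and Utrn spans 0.10.

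Sgcd, δ-sarcoglycan, had the widest range of the members, 1.73 in log2 units, wider than that of 99.0% of all genes. It read 6.45 and 6.76 in Runx1f/f 2 and 3 and 6.34 and 6.66 in WT 2 and 3. In Runx1f/f 1 and 4 it read 5.42 and 5.11, and in WT 1 and 4 it read 5.71 and 5.03. The lowest array of the first side lay 0.64 above the highest of the second, and the mean difference was 1.23, a ratio of 2.35. Only 0.567% of genes had a larger difference.

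Sgcb, β-sarcoglycan, which assembles with δ-sarcoglycan into the core of the sarcoglycan subcomplex, moved far less. Its values were 9.91 and 9.88 in Runx1f/f 2 and 3 and 9.92 and 9.89 in WT 2 and 3. They were 9.64 and 9.67 in Runx1f/f 1 and 4 and 9.70 and 9.59 in WT 1 and 4. The sides did not overlap, and the difference of 0.25, a ratio of 1.19, exceeded the spread within either side.

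Sgca, α-sarcoglycan, which is largely restricted to striated muscle, did not separate. It read 9.10 and 8.95 in Runx1f/f 2 and 3 and 8.90 and 8.84 in WT 2 and 3, against 8.73 and 8.89 in Runx1f/f 1 and 4 and 9.01 and 8.92 in WT 1 and 4. The sides overlapped, with a difference of 0.06. Within the labels the order was opposite, 0.21 in Runx1f/f and -0.09 in WT. The 3 sarcoglycans therefore had differences of 1.23, 0.25 and 0.06, with no test between them.

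Dmd, dystrophin, was the second member past 1.5-fold. Its probe set gives 1 value for a gene with several promoters and isoforms of different length, which this array value does not separate. It was at 6.01 and 6.09 in Runx1f/f 2 and 3 and at 6.04 and 6.07 in WT 2 and 3. In Runx1f/f 1 and 4 it was at 5.36 and 5.27, and in WT 1 and 4 at 5.61 and 5.02. The 4 arrays of the first side were tightly grouped, while those of the second were spread more widely. The difference was 0.74, a ratio of 1.67, and 1.58% of genes had a larger one.

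Utrn, utrophin, is the autosomal relative of dystrophin that lines the membrane of developing and regenerating fibres and is later concentrated at the neuromuscular junction. It hardly varied, at 8.39 and 8.39 in Runx1f/f 2 and 3 and 8.37 and 8.46 in WT 2 and 3. The other arrays read 8.39 and 8.38 in Runx1f/f 1 and 4 and 8.37 and 8.35 in WT 1 and 4. The sides overlapped, the difference was 0.03, and only 6.39% of genes had a narrower range than its 0.10. Dystrophin thus differed 1.67-fold across arrays on which utrophin differed 1.02-fold.

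Dag1 encodes the precursor of α- and β-dystroglycan, the laminin receptor at the centre of the complex. Runx1f/f arrays were flat, at 8.67 and 8.67 for numbers 2 and 3 and 8.68 and 8.68 for numbers 1 and 4. WT arrays were not, at 8.92 and 8.88 for numbers 2 and 3 and 8.56 and 8.34 for numbers 1 and 4. The sides overlapped over all arrays. The difference of 0.22 was made up of -0.0093 within Runx1f/f and 0.45 within WT.

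Dtna, α-dystrobrevin, the cytoplasmic partner of dystrophin and the syntrophins, read 8.33 and 8.07 in Runx1f/f 2 and 3 and 8.03 and 8.08 in WT 2 and 3. It read 7.46 and 7.73 in Runx1f/f 1 and 4 and 7.90 and 7.57 in WT 1 and 4. WT 1 came within 0.13 of the lowest array of the other side, without overlap. The difference was 0.46, a ratio of 1.38.

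Sspn, sarcospan, a membrane protein with several transmembrane segments that binds the sarcoglycans, stood at 8.64 and 8.44 in Runx1f/f 2 and 3 and at 8.37 and 8.71 in WT 2 and 3. Runx1f/f 1 and 4 read 7.87 and 8.08, and WT 1 and 4 read 8.07 and 7.89. The sides were 0.30 apart. Its difference of 0.57, a ratio of 1.48, fell just short of the 1.5-fold threshold, which is 0.58 on the log2 scale, whereas Dmd with 0.74 was the member just past it.

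Each of the 3 column sets with equal means holds arrays of both sides, which gives 3 separate differences per gene. In Sgcd they were 1.03 for Runx1f/f 2 minus Runx1f/f 1, 1.64 for Runx1f/f 3 minus Runx1f/f 4, and 1.13 within WT. Dmd gave 0.65, 0.82 and 0.74 in that order, and Sgcb 0.27, 0.21 and 0.26. Sspn gave 0.77, 0.36 and 0.56, and Dtna 0.87, 0.34 and 0.32. As the absence of overlap over all arrays requires, these 5 members were above 0 in all 3 sets. Sgca, at 0.37, 0.06 and -0.09, Dag1, at -0.0080, -0.010 and 0.45, and Utrn, at -0.0041, 0.013 and 0.050, were not.

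**Figure D2:**
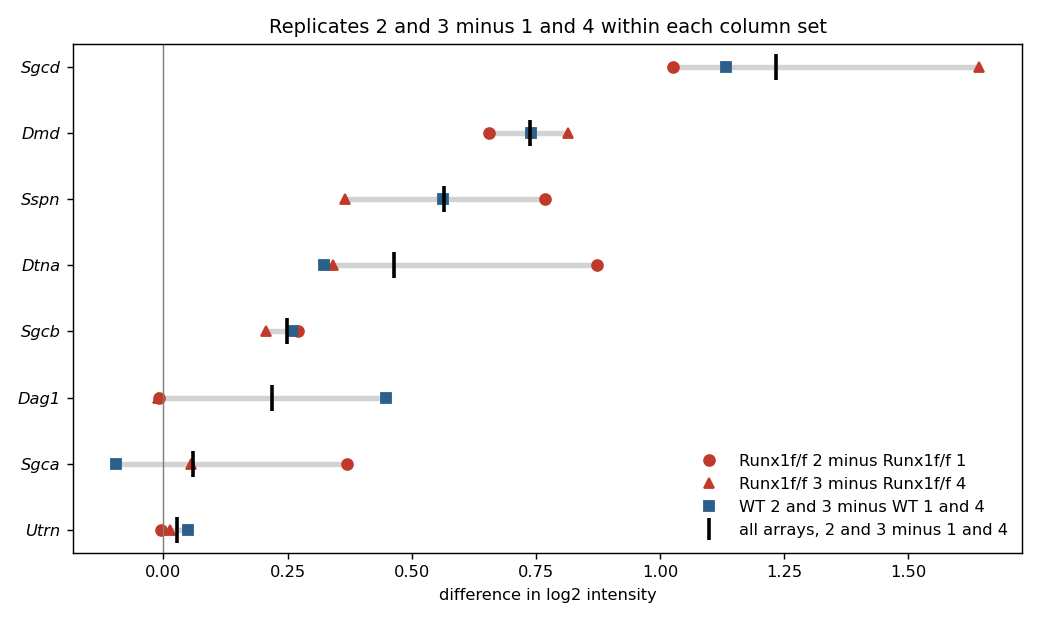
Difference in log2 intensity between replicates 2 and 3 and replicates 1 and 4 for each member, computed inside each of the 3 column sets with equal means (circle, triangle and square) and over all 8 arrays (black bar). All points of Sgcd, Dmd, Sspn, Dtna and Sgcb lie right of 0, which follows from their lack of overlap. Those of Dag1, Sgca and Utrn lie on both sides of 0 or close to it.

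Source numbers in the labels, which no source used here explains, run from 139 to 142 for numbers 1 and 2 of both labels. By the headers, this is the only run with arrays of both sides. Within it Sgcd differed by 0.83 and Dmd by 0.54, both smaller than over all arrays, and Sspn, Dtna and Sgcb by 0.54, 0.50 and 0.25. By the headers the numbers 160 and 161 belong to replicate 3 and the numbers 181 and 189 to replicate 4. On that reading no difference between the sides can be had within those runs. Were the columns in rising order of the source numbers, 139 to 142 would fall on the columns headed WT 1 to 4. The numbers 160 and 161 would fall on Runx1f/f 1 and 2, and 181 and 189 on Runx1f/f 3 and 4. Each run would then hold both sides, with the differences of the 3 column sets given above. Which order holds was not tested.

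Markers of differentiating muscle lay in the same direction as the members. Of 6 such markers, 5 were above without overlap (4 after median centring) and 0 below, against 9.87% and 10.5% of all genes. Their median difference was 0.62. Their summed level, as log2 of the summed linear intensities, was 13.78 to 14.22 on arrays numbered 2 and 3 and 13.23 to 13.64 on arrays numbered 1 and 4. Ckm, muscle creatine kinase, differed by 0.99 and Actn2, a Z-disc actinin, by 0.91. Myog, the regulator of terminal differentiation, differed by 0.76, while Myf5, the early myogenic factor, differed by -0.89 and Myod1 by -0.26, all 3 without overlap. Of the 7 myoblast markers 3 were above and 3 below, against the same shares of all genes. Besides Myog, Myf5 and Myod1 these were Cdh15 with 0.25, Des with 0.18 and Chrna1 with -0.14, and Pax7 overlapped. The part of these shifts in the values of the complex was not tested. Among the other cell types, 0 of 5 fibroblast, 0 of 5 leukocyte, 0 of 4 smooth muscle and pericyte, 0 of 3 Schwann cell and neural and 0 of 3 adipocyte markers separated. Of 5 endothelial markers, 1 was above and 2 below. The shares of all genes, 9.87% above and 10.5% below, are the background for these lists too. The endothelial levels were all near the bottom of the scale, and after either other scaling 0 endothelial markers were above and 1 leukocyte marker was below. The abundant smooth muscle and pericyte markers Rgs5 and Tagln differed by -0.49 and -0.45 with overlap over all arrays, by -0.84 and -1.21 within WT without overlap, and by -0.14 and 0.31 within Runx1f/f. The median of that list was -0.24, and its summed level was 8.27 to 9.12 on arrays numbered 2 and 3 and 8.62 to 9.36 on arrays numbered 1 and 4. The part of this in the values of the complex was not tested either.

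Of 10 other components of the complex that were measured, 2 were above without overlap and 1 below, with a median difference of -0.02. Over all genes the shares were 9.87% and 10.5%, so counts this small do not set the list apart. Cav3, the muscle caveolin that binds β-dystroglycan, read 9.74 and 9.46 in Runx1f/f 2 and 3 and 9.31 and 9.44 in WT 2 and 3, against 8.03 and 8.31 in Runx1f/f 1 and 4 and 8.57 and 8.21 in WT 1 and 4. Its difference of 1.21, a ratio of 2.31, was close to that of Sgcd. Drp2, a smaller relative of dystrophin, was also above, by 0.27.

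The syntrophins are adaptors that bind dystrophin and dystrobrevin. Sntb2, β2-syntrophin, read 6.15 and 6.35 in Runx1f/f 2 and 3 and 6.01 and 6.39 in WT 2 and 3, against 6.68 and 6.48 in Runx1f/f 1 and 4 and 6.60 and 6.66 in WT 1 and 4. All arrays of the first side were lower, by 0.38 on average. Sntb1, β1-syntrophin, differed by 0.33 with overlap. Its difference was 0.63 within WT, whereas the Runx1f/f pairs had opposite signs, 0.39 for numbers 2 and 1 and -0.33 for numbers 3 and 4.

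A pair of paralogues of members had differences below 0 with overlap. Dtnb, β-dystrobrevin, differed by -0.19. Sgce, ε-sarcoglycan, the widely expressed relative of α-sarcoglycan, differed by -0.23, with -0.46 within WT and opposite signs in the Runx1f/f pairs, -0.24 for numbers 2 and 1 and 0.24 for numbers 3 and 4. Sgcz, Sntg1, Sntg2 and Nos1, the neuronal nitric oxide synthase that syntrophin can anchor, read at most 4.19 on any array, below the median of all genes of 4.43, and no detection values were used for them.

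Dystroglycan binds laminin only after its α-subunit has been glycosylated. In 13 measured genes of this modification, 0 were above and 4 were below without overlap, against 9.87% and 10.5% of all genes, and the median difference was -0.09. After repeated quantile normalization 1 was above. Pomt1, an O-mannosyltransferase that starts the sugar chain, was lowest, at 6.61 and 6.60 in Runx1f/f 2 and 3 and 6.59 and 6.55 in WT 2 and 3, against 6.91 and 6.92 in Runx1f/f 1 and 4 and 6.87 and 7.03 in WT 1 and 4. Its difference was -0.35, a ratio of 0.786. Rxylt1, which adds a xylose, differed by -0.18, and Dolk and Dpm3, of dolichol-linked mannose supply, by -0.20 and -0.09, these 3 also without overlap. Pomt2, the partner of Pomt1, and Gmppb, which makes the mannose donor, overlapped and had no steady direction. Pomt2 differed by 0.12 within Runx1f/f and -0.28 within WT, and Gmppb by -0.0094 and -0.37. The Runx1f/f pairs of Gmppb had opposite signs, -0.13 for numbers 2 and 1 and 0.11 for numbers 3 and 4.

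Of 10 measured ligands of dystroglycan and basement membrane genes, 2 were above, 1 below and 7 overlapped, against 9.87% above and 10.5% below over all genes. Lama2, the laminin α2 chain of the muscle basement membrane, was above by 0.50, at 8.19 and 8.05 in Runx1f/f 2 and 3 and 7.99 and 8.06 in WT 2 and 3, against 7.45 and 7.59 in Runx1f/f 1 and 4 and 7.64 and 7.60 in WT 1 and 4. Hspg2, perlecan, was above by 0.27, and Lamb1, the laminin β1 chain, was below by 0.31.

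Bgn encodes biglycan, a proteoglycan that binds dystroglycan and sarcoglycans, and had the widest range of the 4 lists, 2.82. It read 9.66 and 9.51 in Runx1f/f 2 and 3, against 6.84 and 6.99 in Runx1f/f 1 and 4. In WT 2 and 3 it read 7.997 and 8.80, against 8.57 and 7.64 in WT 1 and 4, so the sides overlapped within WT. Its difference was 2.67 within Runx1f/f and 0.29 within WT. Agrn, agrin, which organises the neuromuscular junction, had a smaller contrast of the same kind, 0.61 within Runx1f/f and -0.08 within WT, with overlap. Lama5, the laminin α5 chain, differed by -0.26 within Runx1f/f and 0.54 within WT. These contrasts between the labels were not tested.

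Among 7 measured genes of membrane repair and cytoskeletal linkage, 1 was above, 1 below and 5 overlapped, again near the shares of all genes. Dysf, dysferlin, which reseals the muscle membrane, read 8.18 and 7.62 in Runx1f/f 2 and 3 and 7.84 and 7.98 in WT 2 and 3, against 6.73 and 7.28 in Runx1f/f 1 and 4 and 7.10 and 6.90 in WT 1 and 4. The difference was 0.90, a ratio of 1.87. Cavin4, a muscle caveolar coat protein, and Ttn, titin, differed by 0.43 and 0.40 with overlap. Itga7, the α7 subunit of the other main laminin receptor of muscle, differed by -0.33 within Runx1f/f and 0.11 within WT, with overlap. Actb, β-actin, differed by -0.14 without overlap.

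**Figure D3:**
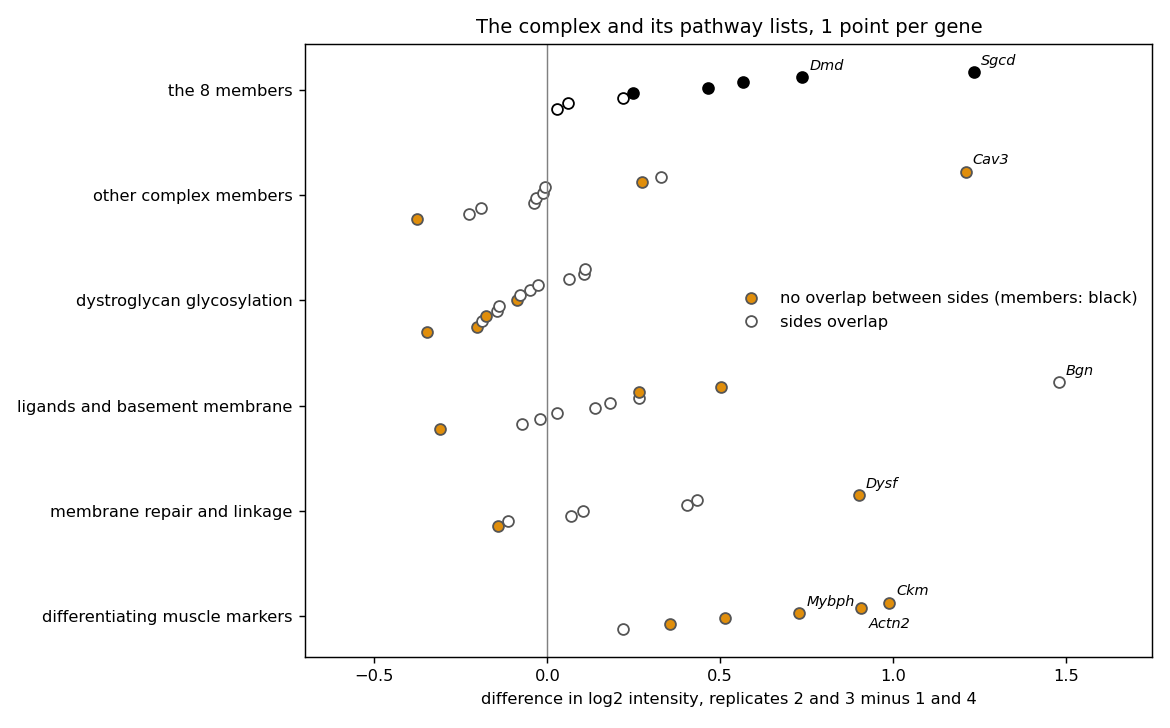
Difference in log2 intensity, replicates 2 and 3 minus replicates 1 and 4, for the 8 members, the 4 pathway lists and the differentiating muscle markers, 1 point per gene, filled where the 4 and 4 arrays do not overlap. Sgcd and Cav3 stand near 1.2, Bgn is farthest right but overlaps, and the glycosylation genes lie at or left of 0.11.

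For the 3 members with the widest ranges, the nearest genes in pattern were taken by the root mean square difference of values centred on each gene's mean over the 8 arrays. Nearest to Sgcd were Limch1, Rftn2 and Abra, with root mean square differences of 0.13, 0.14 and 0.14, where the deviation of Sgcd from its own mean was 0.66. Abra, which encodes an actin-binding protein of striated muscle, read 5.10 to 5.51 on arrays numbered 2 and 3 and 3.99 to 4.40 on the others. Nearest to Dmd were Lipa, lysosomal acid lipase, Carns1, carnosine synthase, and Maged2, at 0.09, 0.10 and 0.10 against 0.40 for Dmd itself. Nearest to Dtna were Cavin4, Mymx, a micropeptide required for myoblast fusion, and Acta1, skeletal α-actin, at 0.05, 0.06 and 0.06 against 0.27 for Dtna itself. These 9 genes were selected for likeness on the same 8 arrays, which are not independent.

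**Figure D4:**
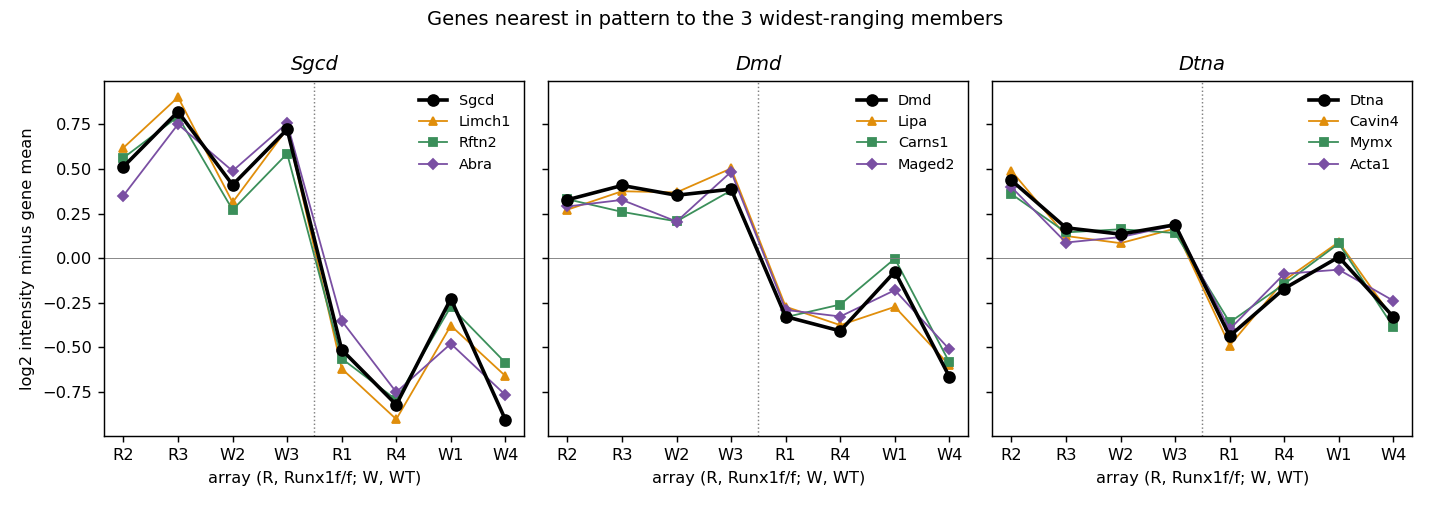
Log2 intensity minus the gene's mean over the 8 arrays for Sgcd, Dmd and Dtna (black) and the 3 genes nearest to each, with arrays numbered 2 and 3 left of the dotted line, R for Runx1f/f and W for WT. Dtna, Cavin4, Mymx and Acta1 share a peak in Runx1f/f 2 and a middle position of WT 1.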

How the data were processed

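The authors deposited a table of log2 intensities per probe set, with 1 column per array. Per the submitters' processing notes, which give no versions, RMA and Partek were used, and no label records a later adjustment. These notes do not state how the 3 column sets came to have equal means, and this was not tested. Columns were assigned by the accession in the header, and whether they stand in that order or in the order of the source numbers was not tested. No detection values were used, and the number of arrays limits the precision.

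Of 35399 rows, 21789 had 1 gene symbol in the platform annotation, of which 21698 matched RefSeq (GRCm38.p6), with 0 symbols changed. The row with the highest mean stood for a gene, which left 19938 genes, with no filter on dim rows. Levels of the members were not ranked against each other, and quantiles over all genes only mark the dim end of the scale.

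Genotype was fitted with limma (3.58.1, under R 4.3.3) as the only term, two-sided with Benjamini-Hochberg adjustment and a threshold of 0.05, after the fit had been tested on simulated data. Its degrees of freedom are overstated, since the 8 arrays held 5 components of variance and not 7. The p-values of this limma fit were all at least 0.99889 because the means are equal, and they do not measure the spread between arrays.

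The members, lists and tests were chosen with earlier results of these data known. All 8 members are named, with the 4 genes of widest range per pathway list, and other list genes were named after their values were seen. Some genes of the pathway and marker lists were not analysed here, and list sizes count the measured genes. Deviations of same-numbered arrays correlated by 0.39, 0.46, 0.60 and 0.57 over genes, which is why an alternative fit takes the numbers as pairs. No label states a pairing, and Runx1f/f 1 correlated more with WT 4, by 0.64, and Runx1f/f 2 more with WT 3, by 0.56. Other alternatives were blocks, scalings, a variance model, a filter on dim genes, other rows and folds, and each array left out.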

Additional observations from a re-analysis of the deposited data

Results flagged for a closer look

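The members and the 16 pathway genes of widest range were checked for an array far from the other 3 of its label, over 48 groups of 4 values. In the 24 Runx1f/f groups the mirrored arrays make the values symmetric, so none can be marked. Among independent values, about 5% of such groups would be marked by chance. In 2 groups an array stood apart. Utrn read 8.46 in WT 3, against 8.35 to 8.37 in the other WT arrays. Cavin4 read 9.76 in WT 4, with the other WT arrays between 10.18 and 10.26.

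In 3 genes the arrays numbered 2 and 3 lay wholly on opposite sides of those numbered 1 and 4 in the labelled genotypes, and the difference between the labels was not tested. Dag1 differed by -0.0093 in Runx1f/f and 0.45 in WT arrays. Sgca differed by 0.21 in Runx1f/f and -0.095 in WT arrays. Lama5 differed by -0.26 in Runx1f/f and 0.54 in WT arrays. Over all genes, 8.31% showed such an opposite order.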

How the results depend on the processing

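The count of 0 genes between the labelled genotypes held under every alternative run, replicate block included (0 genes, no member called), and with each array left out (0 to 0 genes, 0 to 27 at an unadjusted p under 0.05). Equal means fix these counts where all arrays are kept. Where an array is left out, the difference between the labels reflects only the deviation of that array from the mean of its label. The left-out counts therefore do not measure an effect of Runx1 either. Of the differences between replicates 2 and 3 and replicates 1 and 4, 5 of 8 members stayed without overlap (5 to 5) with each array left out. Leaving out an array cannot make separated sides overlap, so the count of 5 could not fall. The count past 1.5-fold, 2, was then 2 to 3, and became 1 at 2-fold and 4 at 1.2-fold, by construction. Left-out ranges were 0.64 to 0.84 for Dmd, 0.0078 to 0.039 for Utrn, 0.14 to 0.26 for Dag1, 0.0071 to 0.10 for Sgca, 0.23 to 0.26 for Sgcb, 1.14 to 1.36 for Sgcd, 0.40 to 0.54 for Dtna and 0.51 to 0.62 for Sspn. Values that moved by more than the spread between arrays of a side were, within Runx1f/f 1 and 2, -0.0041 for Utrn, -0.0080 for Dag1, 0.37 for Sgca, 0.87 for Dtna and 0.77 for Sspn. Within Runx1f/f 3 and 4 they were -0.010 for Dag1, 0.21 for Sgcb, 1.64 for Sgcd and 0.36 for Sspn. Within all Runx1f/f arrays they were -0.0093 for Dag1 and 0.21 for Sgca, and within WT 0.45 and -0.095. A further alternative, within the source numbers 139 to 142 by the headers, was chosen after seeing the data. The values that moved there were 0.54 for Dmd, -0.0044 for Utrn and 0.83 for Sgcd. Scaling moved 6 list counts. After median centring 4 and not 5 differentiating muscle markers were above and 2 other complex members were below, and after repeated quantile normalization 2 repair and linkage genes and 1 glycosylation gene were above. Under both scalings 0 endothelial markers were above and 1 leukocyte marker was below. Among pathway genes, left-out ranges in log2 units included those of Pomt2 (-0.14 to -0.013), Gmppb (-0.24 to -0.11) and Itga7 (-0.18 to -0.057). The cause was not tested.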
